A study of Mus musculus with 18 samples.

Results

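The phosphodiesterases (PDE) and the regulators of G protein signaling (RGS) are 2 gene families that end second messenger signals, and their transcripts were followed here in the granulosa cells of ovulating mouse follicles. The members were the genes of the count table whose symbol was Pde with a number and a letter from a to d, or Rgs with a number. There were 43 of them, 22 phosphodiesterases and 21 RGS genes, among 41325 genes in all. Cumulus cells, which surround the oocyte, and mural granulosa cells, which line the follicle wall, were taken from ovaries of wild-type (WT) mice at 0, 4 and 12 h after human chorionic gonadotropin (hCG), the hormone injected to trigger ovulation in place of luteinizing hormone. Each of the 6 groups had 3 libraries of polyA-selected RNA, with no label for mouse strain, age or hormone priming, and nothing in the labels said that replicates came from separate animals. The p-values therefore measure the spread between these libraries, which may be technical.

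Luteinizing hormone and hCG act through a receptor coupled to the stimulatory G protein, which drives cyclic AMP synthesis in mural cells, and phosphodiesterases hydrolyze cyclic AMP, cyclic GMP or both. Cyclic GMP made in the granulosa cells passes through gap junctions into the oocyte and holds it in meiotic arrest until the hormone surge. RGS proteins speed the GTPase of G protein alpha subunits of the inhibitory and Gq classes and so shorten the signal of the receptors that use them. Both families act as brakes, and several members are themselves induced by the pathway they limit.

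Counting depth was 32211600 to 47919400 counts per library, and values are given as CPM, the count scaled to a common library size after TMM normalization, so 1 count was worth 0.0195 to 0.0333 CPM. The summed mural markers (Lhcgr, Cyp11a1, Nppc and Cyp19a1) were 85.4 to 388 CPM in the cumulus libraries, against 2021 to 5580 CPM in the mural libraries, and so separated the libraries as their titles do. The titles set the groups, because the cell type field read mural for 8 of the 9 cumulus libraries. Oocyte transcripts stood apart. The sum of the 16 oocyte markers in the table was 438, 2046 and 2143 CPM in cumulus libraries at 0 h, 2434, 1243 and 7749 CPM at 4 h, and 10.05, 12.9 and 8.06 CPM at 12 h. In mural libraries it lay between 142 and 668 CPM at all times. Summed theca markers (Cyp17a1, Insl3, Star, Cyp11a1, Ptch1, Gli1, Col1a1, Col1a2 and Lhcgr) were 49.6 to 864 CPM in cumulus and 2128 to 7482 CPM in mural libraries. Lhcgr and Cyp11a1 are also on the mural list, so this sum is not particular to theca cells. In mural libraries they were 5441 to 7136 CPM at 4 h, against 2128 to 2495 CPM at 0 h, with 2 of 9 markers higher and 2 lower. Summed erythroid markers were 5.98 to 109 CPM in cumulus and 87.8 to 734 CPM in mural libraries, and in mural libraries 5 of 6 were higher at 4 h than at 0 h. The part of theca and blood cells in the changes below was not tested. Mitochondrial transcripts took 2.52 to 12.8% of counts, the highest share being in cumulus 0 h replicate 1. Because these are bulk samples, fewer cells of a type and less RNA per cell cannot be told apart.

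Of the 43 members, 36 passed the expression filter, 19 phosphodiesterases and 17 RGS genes, and 35 of these were called in at least 1 of the 11 comparisons (edgeR quasi-likelihood test, Benjamini-Hochberg adjusted p under 0.05 over 19941 genes). The share of all genes called in at least 1 comparison was not computed. Single comparisons called 14 to 64.2% of all genes, so the 35 are no result about the families. Large shares of the whole transcriptome moved too. At 4 h against 0 h in cumulus cells 14 members rose and 9 fell, where 47.8% of all genes tested were called, 25% higher and 22.8% lower. In mural cells 9 rose and 12 fell, where 45.1% were called, 22.8% higher and 22.3% lower. At 12 h against 0 h 11 rose and 16 fell in cumulus cells (64.2% of all genes, 31.2% higher and 32.9% lower), and 9 rose and 11 fell in mural cells (40.7%, 21.6% higher and 19% lower). Between 4 and 12 h, 7 rose and 16 fell in cumulus cells (60.5%, 29.2% higher and 31.3% lower), and 6 rose and 10 fell in mural cells (34.5%, 18.3% higher and 16.1% lower). The median log2 change over the 36 tested members was 0.30 in cumulus cells and -0.11 in mural cells at 4 h, where the median of all genes tested was 0.13 and -0.06. A member can pass the filter through 1 high group alone, so these counts describe the families and are no test of them.

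To compare members with each other, CPM was divided by the exon length of each gene (CPM per kb). In cumulus cells at all times and in mural cells at 0 h the phosphodiesterases were led on that scale by Pde8a, which degrades cyclic AMP with high affinity, and Pde6d, a prenyl-binding subunit with no catalytic activity. In cumulus cells at 0 h Pde8a had 19.6 and Pde6d 19.5 CPM per kb, out of a family sum of 63.5 ± 1.7 (SD, n = 3). The family sum was 81.8 ± 17.1 CPM per kb at 4 h and 86.9 ± 1.0 at 12 h in cumulus cells, and in mural cells it was 74.1 ± 5.4 at 0 h, 104.9 ± 5.8 at 4 h and 88.2 ± 3.0 at 12 h. The order within the family was not the same in the 2 cell types. In mural cells at 4 h Pde8a supplied 30.5% of the sum, Pde1a 26.0%, Pde10a 13.6% and Pde6d 6.16%. Pde1a supplied 35.8% of the sum in mural cells at 12 h, ahead of Pde8a at 23.8%, against 3.95% in cumulus cells at 12 h. The RGS sum was set by Rgs2 in every group, at 41.7% in mural cells at 0 h, 91.9% at 4 h and 73.2% at 12 h, and in cumulus cells at 53.6% at 0 h, 83.3% at 4 h and 88.6% at 12 h.

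**Figure D1:**
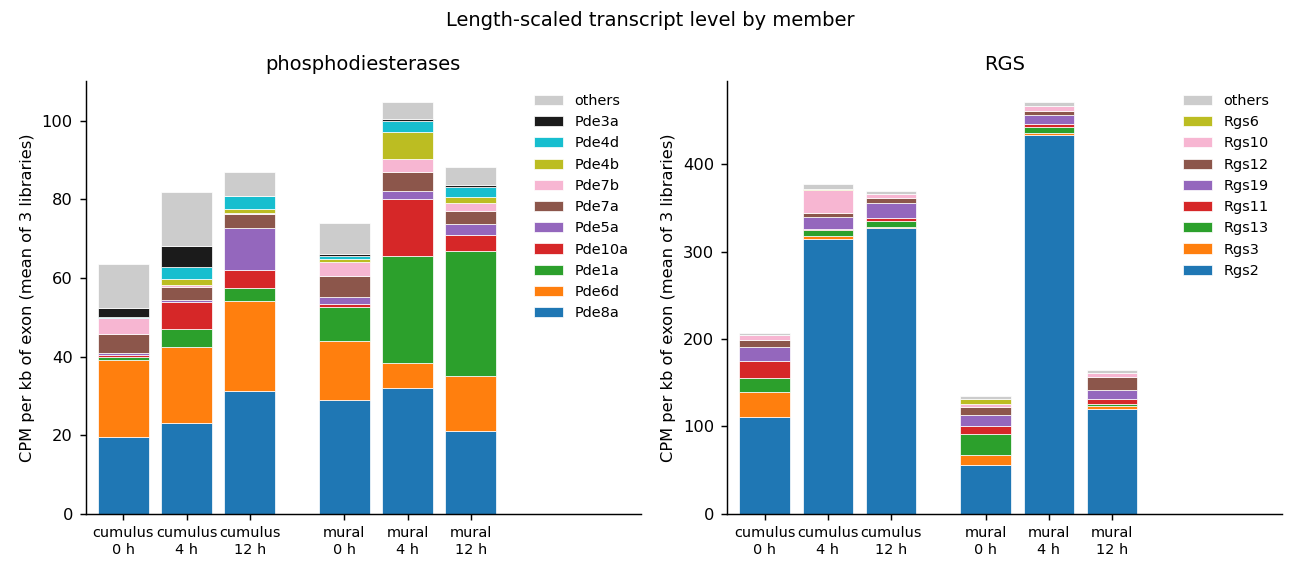
Stacked bars give the mean of 3 libraries per group in CPM per kb of exon, split by member, for phosphodiesterases (left) and RGS genes (right). The Pde1a share is wide in mural libraries at 4 and 12 h, and Rgs2 is the largest segment of each RGS bar.

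Of the cyclic AMP-specific PDE4 enzymes, Pde4a, Pde4b and Pde4d were higher at 12 h than at 0 h in both cell types, each on its own schedule. Pde4d had 3.25, 3.94 and 4.14 CPM at 0 h, 37.5, 38.9 and 32.9 CPM at 4 h, and 42.0, 35.0 and 40.0 CPM at 12 h in cumulus cells. In mural cells it had 10.5, 12.5 and 8.92 CPM at 0 h, 28.3, 41.1 and 33.3 CPM at 4 h, and 30.3, 34.4 and 29.7 CPM at 12 h. Cumulus cells started lower and overlapped mural cells at 4 h. At 12 h the lowest cumulus library (35.0 CPM) was just above the highest mural library (34.4 CPM), and the difference between the cell types was not called. Within each cell type no library at 4 or 12 h overlapped those at 0 h. The log2 change at 4 h was 3.27 ± 0.16 (SE) in cumulus cells (adjusted p = 3.6e-11) and 1.69 ± 0.15 in mural cells (adjusted p = 6.6e-08), and the difference between the 2 changes was 1.58 ± 0.21 (adjusted p = 7.9e-05).

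Pde4b was low in cumulus cells before hCG, with 0.683, 0.640 and 0.942 CPM at 0 h, and had 13.6, 21.2 and 14.7 CPM at 4 h and 15.0, 10.6 and 11.7 CPM at 12 h. In mural cells it had 8.0, 8.59 and 7.12 CPM at 0 h, 54.0, 97.4 and 68.2 CPM at 4 h, and 15.4, 19.3 and 15.4 CPM at 12 h. The mural peak had passed by 12 h (log2 change against 4 h of -2.13 ± 0.22, adjusted p = 5.0e-07), while the cumulus level at 12 h overlapped that at 4 h. The change by 4 h was 4.44 ± 0.26 in cumulus cells and 3.21 ± 0.23 in mural cells (adjusted p = 2.2e-10 and 2.6e-09). Their difference of 1.23 ± 0.32 (adjusted p = 0.016) was not called with limma voom (adjusted p = 0.10) or without cumulus 0 h replicate 1 and cumulus 4 h replicate 3 (adjusted p = 0.050). At 0 h cumulus and mural cells differed by -3.38 ± 0.25 on the log2 scale (adjusted p = 1.3e-08).

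Pde4a was late in both cell types. Cumulus libraries had 2.07, 2.04 and 1.86 CPM at 0 h, 2.15, 1.97 and 2.78 CPM at 4 h, and 13.6, 15.3 and 14.5 CPM at 12 h. Mural libraries had 2.56, 3.12 and 2.64 CPM at 0 h, 2.0, 1.40 and 1.94 CPM at 4 h, and 9.13, 8.88 and 7.45 CPM at 12 h. The 12 h libraries stood clear of all earlier ones in both cell types, with a log2 change against 0 h of 2.86 ± 0.21 in cumulus and 1.61 ± 0.20 in mural cells (adjusted p = 1.5e-09 and 2.9e-06), a difference of 1.25 ± 0.28 (adjusted p = 0.0017). Pde4c, the last PDE4 gene, was at most 0.224 CPM in any library and was not tested.

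**Figure D2:**
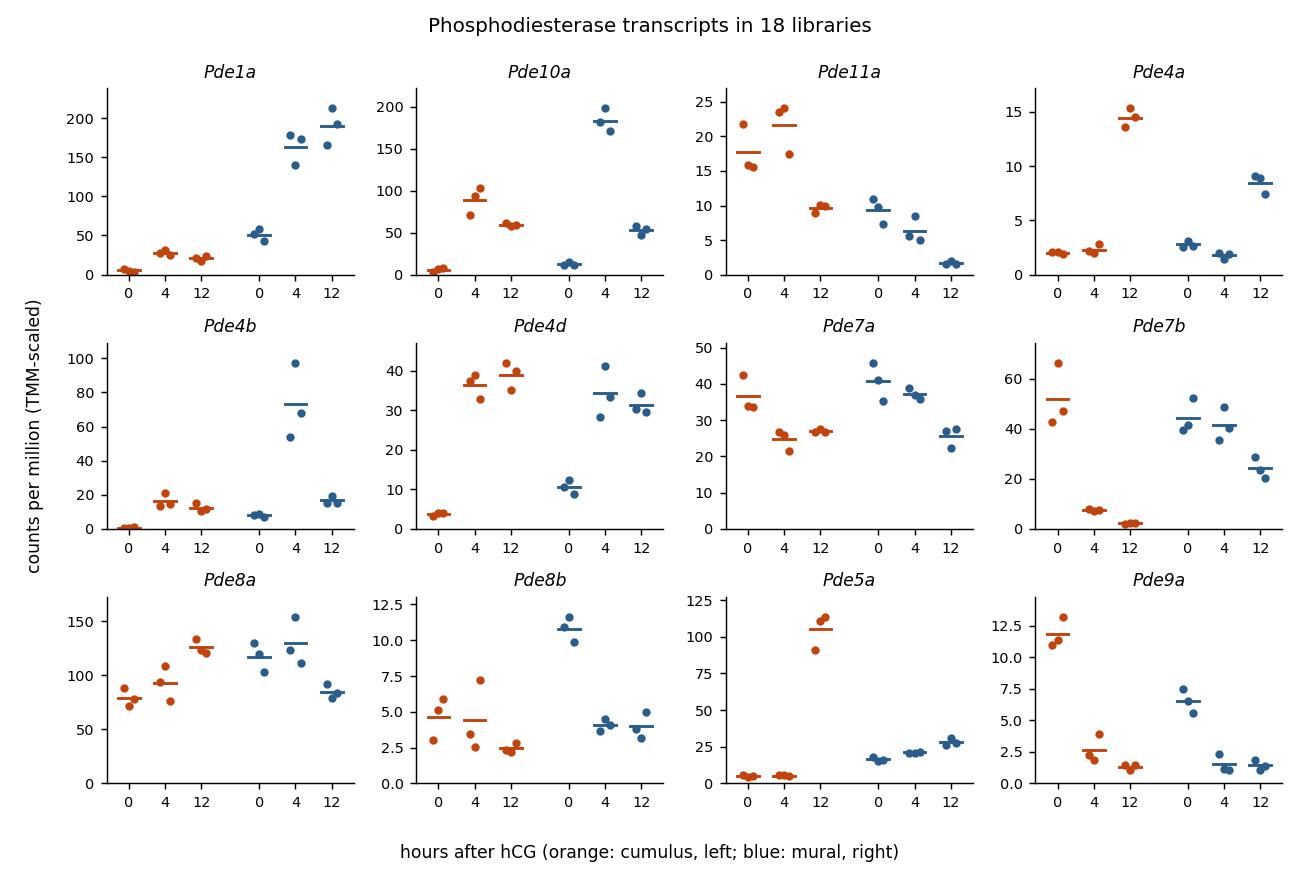
Each panel gives the CPM of 1 phosphodiesterase in the 18 libraries, with a point per library and a bar at the group mean, against hours after hCG for cumulus (orange, left) and mural cells (blue, right). Every axis starts at 0. In the Pde1a panel every cumulus library, at most 31.5 CPM, lies below every mural library, at least 43.2 CPM.

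The PDE1, PDE10 and PDE11 enzymes, which accept both cyclic nucleotides, differed between the cell types. Pde1a, a calcium and calmodulin-activated enzyme, had 6.72, 5.14 and 3.75 CPM at 0 h, 27.3, 31.5 and 24.7 CPM at 4 h, and 21.6, 17.2 and 23.2 CPM at 12 h in cumulus cells. Mural cells had 52.1, 58.2 and 43.2 CPM at 0 h, 178, 140 and 173 CPM at 4 h, and 165, 212 and 192 CPM at 12 h. Every cumulus library was below every mural library, also across times. The rise by 4 h was 2.42 ± 0.19 in cumulus and 1.68 ± 0.18 in mural cells on the log2 scale (adjusted p = 1.0e-08 and 5.2e-07). The log2 difference between cumulus and mural cells was -3.30 ± 0.19 at 0 h, -2.56 ± 0.18 at 4 h and -3.2 ± 0.19 at 12 h, with adjusted p of 8.7e-10, 8.2e-09 and 8.9e-10.

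Pde10a rose steeply in both cell types at 4 h. It had 2.51, 6.86 and 7.88 CPM at 0 h, 70.8, 93.7 and 103 CPM at 4 h, and 61.5, 58.1 and 59.1 CPM at 12 h in cumulus cells, and 11.6, 15.0 and 10.8 CPM, then 182, 198 and 171 CPM, then 58.2, 47.0 and 54.4 CPM at the same times in mural cells. By 4 h the log2 change was 3.94 ± 0.28 in cumulus cells (adjusted p = 4.0e-09) and 3.88 ± 0.28 in mural cells (adjusted p = 4.2e-09). The mural level then fell by 1.79 ± 0.25 on the log2 scale between 4 and 12 h (adjusted p = 2.8e-05), so that the 2 cell types overlapped at 12 h. The difference in change from 0 to 12 h, 1.27 ± 0.36 (adjusted p = 0.010), rested on mural 0 h replicate 2, without which the adjusted p was 0.054.

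Pde11a was higher in cumulus cells and declined. Cumulus cells had 21.8, 15.8 and 15.5 CPM at 0 h, 23.5, 24.1 and 17.5 CPM at 4 h, and 8.98, 10.1 and 9.98 CPM at 12 h. Mural cells had 11, 9.72 and 7.39 CPM at 0 h, 5.59, 8.47 and 4.96 CPM at 4 h, and 1.49, 1.89 and 1.59 CPM at 12 h. The log2 change from 0 to 12 h was -0.87 ± 0.21 in cumulus and -2.50 ± 0.23 in mural cells (adjusted p = 0.0017 and 8.7e-08), and cumulus exceeded mural cells by 1.77 ± 0.22 at 4 h and 2.55 ± 0.23 at 12 h (adjusted p = 4.2e-06 and 1.6e-07). Pde1c stayed between 2.15 and 7.81 CPM in all 18 libraries and was called in 2 of the 11 comparisons. The 7.81 CPM came from cumulus 4 h replicate 3, whose oocyte marker sum was the highest, and the part of oocyte RNA in it was not tested.

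The cyclic AMP-specific PDE7 and PDE8 enzymes did not share 1 time course. Pde7b had 42.5, 66.4 and 47.2 CPM at 0 h, 7.88, 7.10 and 7.51 CPM at 4 h, and 2.07, 2.23 and 2.32 CPM at 12 h in cumulus cells. In mural cells it had 39.4, 41.5 and 52.4 CPM at 0 h, 35.5, 48.6 and 40.3 CPM at 4 h, and 28.8, 23.6 and 20.3 CPM at 12 h. The groups overlapped at 0 h and were far apart at 4 and 12 h. The log2 change at 4 h was -2.79 ± 0.18 in cumulus cells (adjusted p = 8.7e-10) and -0.10 ± 0.17 in mural cells (adjusted p = 0.67), with a difference of -2.69 ± 0.24 (adjusted p = 1.2e-06). At 12 h the changes were -4.56 ± 0.20 and -0.87 ± 0.17 (adjusted p = 2.2e-12 and 3.9e-04). Pde7a had 26.8, 27.7 and 26.7 CPM in cumulus cells at 12 h, against 42.3, 34.0 and 33.5 CPM at 0 h, and 27.1, 22.2 and 27.5 CPM in mural cells at 12 h, against 45.8, 41.1 and 35.2 CPM at 0 h. Its log2 change was -0.43 ± 0.12 in cumulus and -0.67 ± 0.12 in mural cells (adjusted p = 0.0055 and 2.8e-04).

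Pde8a, the most abundant catalytic phosphodiesterase per length in 5 of the 6 groups, moved in opposite directions. It had 88.1, 71.5 and 78.0 CPM at 0 h, 93.6, 109 and 76.3 CPM at 4 h, and 134, 123 and 121 CPM at 12 h in cumulus cells. Mural cells had 129, 120 and 103 CPM at 0 h, 124, 154 and 111.02 CPM at 4 h, and 91.9, 78.6 and 83.7 CPM at 12 h. Cumulus cells were the lower group at 0 h and the higher at 12 h, with no overlap at either time. The log2 change from 0 to 12 h was 0.67 ± 0.14 in cumulus cells (adjusted p = 3.9e-04) and -0.47 ± 0.14 in mural cells (adjusted p = 0.011, or 0.055 without mural 12 h replicate 2), a difference of 1.14 ± 0.20 (adjusted p = 1.8e-04). With the oocyte marker sum as a covariate the cumulus change was -0.12 and was not called. That sum was 8.06 to 12.9 CPM in cumulus libraries at 12 h and 438 to 2143 CPM at 0 h. The groups do not overlap in it, so this fit cannot separate the covariate from time. Pde8b had 10.9, 11.6 and 9.88 CPM in mural cells at 0 h, 3.66, 4.47 and 4.05 CPM at 4 h, and 3.76, 3.17 and 5.01 CPM at 12 h, a log2 change of -1.41 ± 0.33 at 4 h (adjusted p = 0.0017). In cumulus cells Pde8b ran from 2.17 to 7.20 CPM.

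Among the cyclic GMP-specific enzymes, Pde5a, the target of sildenafil, was a late transcript of cumulus cells. In cumulus cells it had 5.38, 4.52 and 5.19 CPM at 0 h, 5.59, 5.55 and 4.87 CPM at 4 h, and 91.0, 110.6 and 113 CPM at 12 h. In mural cells it had 17.8, 15.0 and 16.1 CPM at 0 h, 21.0, 20.6 and 21.7 CPM at 4 h, and 26.5, 31.2 and 27.6 CPM at 12 h. Cumulus cells thus held the lowest levels at 0 and 4 h and the highest at 12 h. The log2 change from 0 to 12 h was 4.38 ± 0.13 in cumulus and 0.80 ± 0.11 in mural cells (adjusted p = 3.2e-14 and 1.2e-05), a difference of 3.58 ± 0.16 (adjusted p = 2.4e-10), and at 4 h the cumulus change was 0.09 ± 0.12 (adjusted p = 0.56). Pde5a is also expressed in vascular cells. Summed markers of pericytes and smooth muscle were 105 to 118 CPM in cumulus libraries at 12 h, against 24.3 to 37.9 CPM at 0 h, with 6 of 11 higher and 2 lower and Kcnj8 at 0. Summed endothelial markers were 166 to 203 CPM at 12 h, against 18.6 to 27.2 CPM at 0 h, with 2 of 9 higher and 5 lower, a sum carried by Cdh5 (164 CPM) with Pecam1 at 2.78 CPM, Tie1 at 0.028 CPM and Cldn5 at 0. Summed theca markers were 756 to 864 CPM in cumulus libraries at 12 h, against 49.6 to 83.0 CPM at 0 h, with 4 of 9 higher and 3 lower, Star at 348 CPM and Cyp17a1 at 0.070 CPM. The part of such cells in the Pde5a level was not tested.

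Pde9a, an enzyme with very high affinity for cyclic GMP, was highest before hCG. It had 11, 11.4 and 13.2 CPM at 0 h, 2.29, 1.82 and 3.89 CPM at 4 h, and 1.45, 1.03 and 1.45 CPM at 12 h in cumulus cells, and 7.46, 6.55 and 5.57 CPM, then 2.36, 1.14 and 1.06 CPM, then 1.83, 1.09 and 1.35 CPM in mural cells. The log2 change at 4 h was -2.15 ± 0.33 in cumulus and -2.10 ± 0.33 in mural cells (adjusted p = 2.9e-05 and 5.1e-05), and no 4 or 12 h library reached a 0 h level in either cell type. Pde6d, which carries prenylated proteins between membranes, fell in mural cells at 4 h, with 34.4, 32.4 and 30.9 CPM at 0 h, 14.7, 13.1 and 14.3 CPM at 4 h, and 29.1, 34.7 and 29.1 CPM at 12 h. The log2 change was -1.21 ± 0.24 at 4 h (adjusted p = 5.5e-04), and the level was higher again at 12 h (1.14 ± 0.24 against 4 h, adjusted p = 0.0014). Cumulus libraries had 38.2, 22.0 and 66.5 CPM of Pde6d at 4 h, and the difference in change between cell types (1.21 ± 0.34, adjusted p = 0.025) was not called without cumulus 0 h replicate 1, mural 0 h replicate 1 or mural 4 h replicate 2 or 3, with adjusted p of 0.052 to 0.066. The 66.5 CPM came from cumulus 4 h replicate 3, whose oocyte marker sum was the highest, and the part of oocyte RNA in it was not tested.

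Pde3a, Pde6b, Pde3b, Pde1b and Rgs17 varied with the oocyte markers among cumulus libraries at 0 and 4 h, which is described here without a test. Pde3a encodes the phosphodiesterase of the oocyte whose inhibition by cyclic GMP keeps meiosis arrested. It had 5.0, 36.1 and 38.6 CPM at 0 h, 38.9, 29.1 and 136 CPM at 4 h, and 0.236, 0.440 and 0.185 CPM at 12 h in cumulus libraries, and 2.99 to 12.3 CPM in mural libraries. Its level was 1.14 to 3.40% of the oocyte marker sum over the 18 libraries, and that of Pde6b 0.101 to 0.680%. Pde6b, a rod photoreceptor subunit, had 1.06, 3.34 and 6.20 CPM, then 3.84, 2.85 and 15.2 CPM, then 0.0591, 0.0879 and 0.0528 CPM at the same times in cumulus libraries, the last from 2 or 3 counts each.

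Among cumulus libraries before 12 h the oocyte sum was lowest in replicate 1 of 0 h and highest in replicate 3 of 4 h, and the same held for the levels of Pde3b, Pde1b and Rgs17. Pde3b, known from fat and liver, had 4.01, 11.4 and 10.7 CPM at 0 h, 13.5, 8.38 and 40.1 CPM at 4 h, and 1.48, 1.03 and 1.27 CPM at 12 h in cumulus libraries. Mural libraries had 5.99 to 10.8 CPM of Pde3b, or 1.34 to 5.69% of the oocyte sum. In cumulus libraries at 0 and 4 h Pde3b was 0.501 to 0.916% of that sum. Pde1b had 2.38, 8.06 and 8.80 CPM at 0 h, 9.36, 6.22 and 36.1 CPM at 4 h, and 4.82, 4.37 and 4.91 CPM at 12 h. Rgs17, of the RZ class, had 4.4, 12.9 and 11.5 CPM at 0 h, 21.9, 15.3 and 54.4 CPM at 4 h, and 6.35, 7.8 and 5.10 CPM at 12 h. At 12 h, where all 16 oocyte markers had fallen and Zp1 and Figla were at 0, Pde1b and Rgs17 remained at several CPM, while Pde3a and Pde6b were close to 0. The log2 change from 0 to 12 h in cumulus cells was -6.53 ± 0.90 for Pde3a, -5.67 ± 0.87 for Pde6b (-5.03 without cumulus 0 h replicate 3) and -2.80 ± 0.48 for Pde3b (adjusted p = 6.6e-06, 2.0e-05 and 6.9e-05). With the oocyte sum as a covariate the fitted changes were 0.97 for Pde3a, 0.84 for Pde6b and 1.41 for Pde3b. Cumulus exceeded mural cells at 4 h by 3.81 ± 0.72 for Pde3a, 4.31 ± 0.73 for Pde6b, 3.52 ± 0.58 for Pde1b and 3.23 ± 0.48 for Rgs17 on the log2 scale. Without cumulus 4 h replicate 3 these were 2.87, 3.25, 2.44 and 2.58, each still called. With the oocyte sum as a covariate they were -0.14, 0.71, 0.49 and 0.67, and none was called. That sum was 1243 to 7749 CPM in cumulus and 190 to 283 CPM in mural libraries at 4 h. In cumulus libraries it was 8.06 to 12.9 CPM at 12 h and 438 to 2143 CPM at 0 h. The groups compared thus do not overlap in it, and these fits cannot separate oocyte RNA from the group.

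**Figure D3:**
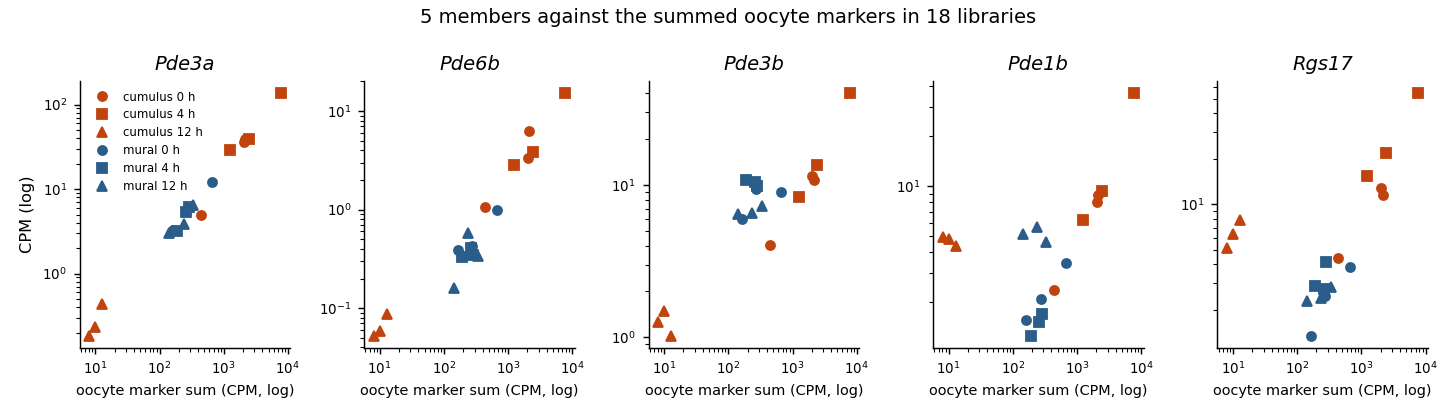
Each panel sets the CPM of 1 gene against the summed CPM of 16 oocyte markers, both on log axes, with a point per library (orange cumulus, blue mural, shape by time). Pde3a lies near a line through all 18 libraries. Pde6b does so except in cumulus libraries at 12 h, from 2 or 3 counts each. There it is 0.588 to 0.680% of the oocyte sum, against 0.101 to 0.290% in the other libraries. Pde1b and Rgs17 lie far above such a line in cumulus libraries at 12 h, and Pde1b also lies above it in mural libraries at 12 h. Pde3b is a larger share of the oocyte sum in mural libraries and in cumulus libraries at 12 h than in earlier cumulus libraries.

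Among the R4 class, the small RGS proteins, Rgs2 was the most abundant member in every group. It prefers Gq alpha subunits and can also inhibit adenylyl cyclase. Cumulus cells had 405, 435 and 369 CPM at 0 h, 1064, 1381 and 981 CPM at 4 h, and 1248, 1222 and 1095 CPM at 12 h. Mural cells had 194, 196 and 221 CPM at 0 h, 1397, 1928 and 1392 CPM at 4 h, and 461, 474 and 377 CPM at 12 h. The cumulus level was thus a plateau from 4 h, and the mural level a pulse that had not returned to the 0 h level by 12 h. Rgs2 was called higher at 12 h than at 0 h in both cell types. The log2 change at 4 h was 1.5 ± 0.15 in cumulus and 2.95 ± 0.16 in mural cells (adjusted p = 2.6e-07 and 9.2e-11), which differed by -1.45 ± 0.21 (adjusted p = 1.7e-04). In mural cells it fell by 1.85 ± 0.15 between 4 and 12 h on the log2 scale (adjusted p = 4.5e-08). Cumulus cells were higher by 0.98 ± 0.15 at 0 h and 1.44 ± 0.15 at 12 h (adjusted p = 4.3e-05 and 8.8e-07).

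Rgs1, best known from lymphocytes, shares a cluster on chromosome 1 with Rgs2 and Rgs13, its neighbours at 238.1 and 64.9 kb. It peaked at different times, with 0.655, 0 and 0.092 CPM at 0 h, 0.539, 1.03 and 1.36 CPM at 4 h, and 9.61, 6.57 and 8.40 CPM at 12 h in cumulus cells. Mural cells had 0.156, 0.050 and 0.087 CPM at 0 h, 3.6, 6.28 and 2.73 CPM at 4 h, and 0.618, 0.587 and 0.448 CPM at 12 h. The mural change at 4 h was 5.34 ± 0.82 (adjusted p = 4.0e-05). The cumulus change at 12 h was 5.11 ± 0.77 (adjusted p = 1.8e-05), and it was 7.46 without cumulus 0 h replicate 1 and 4.46 without replicate 2, the 0 h libraries with 24 and 0 counts. The cumulus change at 4 h (2.04 ± 0.74, adjusted p = 0.032) was 4.38 without cumulus 0 h replicate 1, and was not called without replicate 2 or 3 of either time (adjusted p of 0.054 to 0.11). Summed leukocyte markers were 10.3 to 15.1 CPM in cumulus libraries at 12 h, against 6.30 to 21.3 CPM at 0 h, with 3 of 10 tested higher and 2 lower. In mural libraries they were 29.2 to 36.1 CPM at 4 h, against 14.2 to 25.7 CPM at 0 h, with 4 of 10 higher, Cd3e at 0 and Ptprc at 2.29 CPM. Their part in the Rgs1 levels was not tested.

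Rgs13 and Rgs3 fell in both cell types. Rgs13 had 32.5, 25.4 and 25.5 CPM at 0 h, 10.2, 12.5 and 8.04 CPM at 4 h, and 10.3, 9.76 and 8.95 CPM at 12 h in cumulus cells, and 41.2, 33.6 and 43.1 CPM, then 10.6, 11.7 and 9.31 CPM, then 3.99, 3.2 and 3.51 CPM in mural cells. The cell types overlapped at 4 h, and the cumulus level at 12 h overlapped that at 4 h while the mural level was lower. The change from 0 to 12 h was -1.52 ± 0.17 in cumulus and -3.46 ± 0.18 in mural cells on the log2 scale (adjusted p = 3.5e-07 and 4.7e-11), a difference of 1.94 ± 0.24 (adjusted p = 5.7e-06). Rgs3, a longer R4 member, had 307, 302 and 292 CPM at 0 h, 29.0, 25.7 and 61.3 CPM at 4 h, and 11.8, 12.5 and 14.1 CPM at 12 h in cumulus cells. Mural cells had 119, 117 and 113 CPM at 0 h, 28.0, 24.1 and 29.5 CPM at 4 h, and 41.7, 30.8 and 38.0 CPM at 12 h. Cumulus cells were the higher group at 0 h and the lower at 12 h, and the log2 change from 0 to 12 h was -4.55 ± 0.26 in cumulus and -1.66 ± 0.23 in mural cells (adjusted p = 6.7e-11 and 1.1e-05), a difference of -2.89 ± 0.32 (adjusted p = 2.3e-06). The 61.3 CPM came from the library with the highest oocyte marker sum, whose part in it was not tested.

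The R4 members Rgs4, Rgs5 and Rgs16 had group means under 5 CPM and are named here after their values were seen. Rgs4 had 6, 0 and 0 counts at 0 h, 187, 131 and 126 counts at 4 h and 2, 6 and 2 counts at 12 h in cumulus libraries, or 4.20, 3.98 and 3.5 CPM at 4 h. In mural libraries it had 0.156, 0.151 and 0.874 CPM at 0 h, 1.40, 3.81 and 1.70 CPM at 4 h, and 0.618, 0.800 and 0.947 CPM at 12 h. It was thus a 4 h transcript, with a cumulus log2 change against 0 h of 6.24 ± 0.93 (adjusted p = 2.5e-05), which was 10.2 without cumulus 0 h replicate 1 and 5.62 without replicate 2. The mural change (2.54 ± 0.73, adjusted p = 0.0083) was not called without mural 0 h replicate 1 or 2 or mural 4 h replicate 2 (adjusted p of 0.051 to 0.055), and was 3.85 without mural 0 h replicate 3. Rgs5, the neighbour of Rgs4 at 45.7 kb and a pericyte marker, had 0 to 0.292 CPM in cumulus libraries and 1.43 to 5.83 CPM in mural libraries. The log2 difference between them was -6.74 ± 0.72 at 0 h, -4.91 ± 0.61 at 4 h and -4.36 ± 0.64 at 12 h. It was -7.82 at 0 h without cumulus 0 h replicate 2 and -6.17 at 4 h without cumulus 4 h replicate 1. Summed pericyte and smooth muscle markers were 24.3 to 118 CPM in cumulus libraries and 110 to 210 CPM in mural libraries, and their part was not tested. Rgs16 had 2.33, 1.96 and 0.951 CPM in cumulus cells at 12 h, against 0.137, 0.680 and 0.276 CPM at 0 h (log2 change 2.22 ± 0.48, adjusted p = 5.7e-04, and 3.02 without cumulus 0 h replicate 2).

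**Figure D4:**
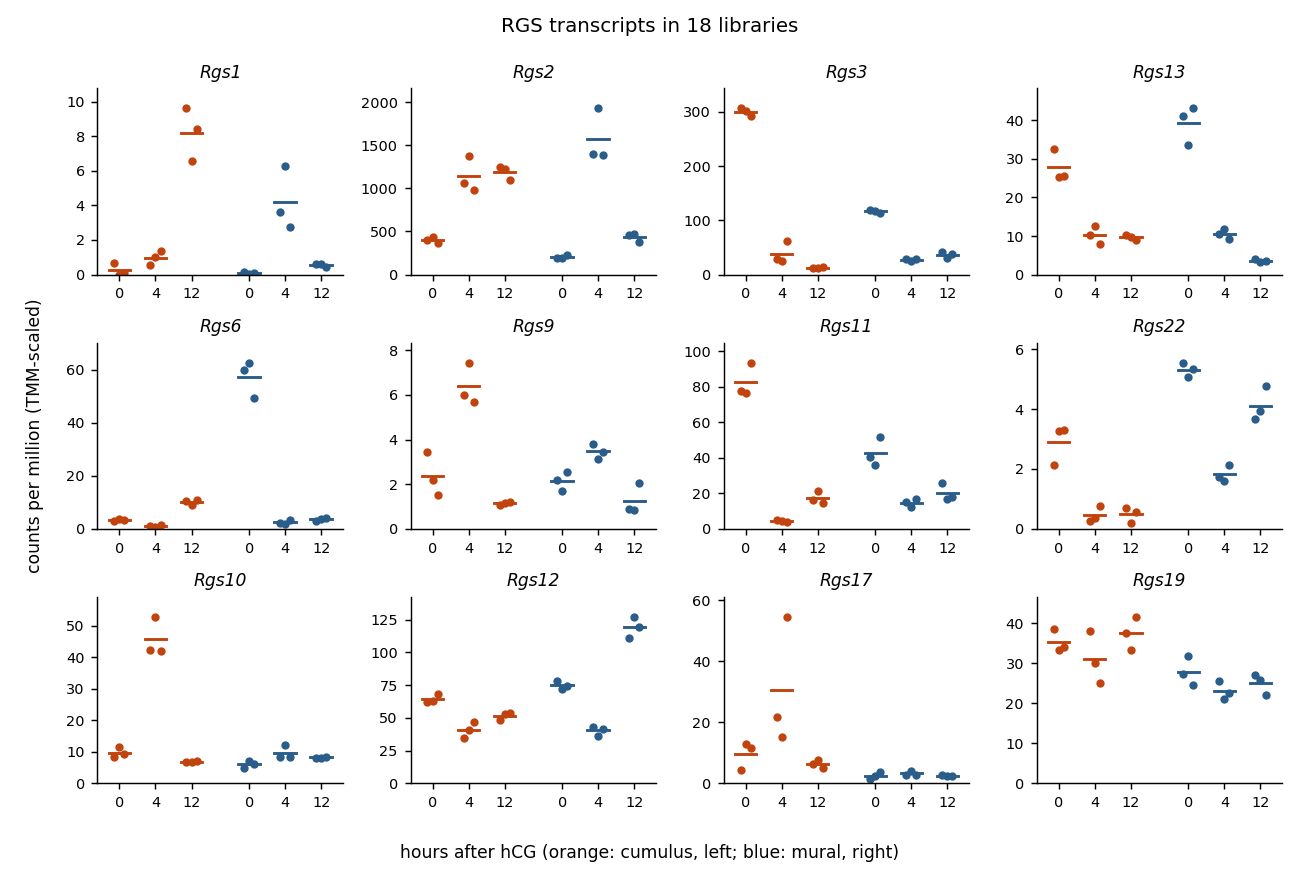
Each panel gives the CPM of 1 RGS gene in the 18 libraries, with a point per library and a bar at the group mean, against hours after hCG for cumulus (orange, left) and mural cells (blue, right). Every axis starts at 0. Rgs2 peaks at 4 h in mural cells, where 12 h stays above 0 h, and forms a plateau in cumulus cells. Rgs10 stands out at 4 h in cumulus cells.

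The R7 proteins pair with the G protein subunit Gb5 and act on inhibitory alpha subunits. Of the 4, Rgs6 and Rgs11 fell at 4 h in both cell types, and Rgs9 rose at 4 h in cumulus cells. Rgs6 had 3.17, 3.64 and 3.26 CPM at 0 h, 1.05, 0.880 and 1.33 CPM at 4 h, and 10.4, 8.97 and 11.1 CPM at 12 h in cumulus cells. Mural cells had 59.9, 62.7 and 49.6 CPM at 0 h, 2.20, 1.74 and 3.52 CPM at 4 h, and 3.01, 3.73 and 4.06 CPM at 12 h. The 2 cell types had exchanged their order by 12 h. The log2 change from 0 to 12 h was 1.59 ± 0.21 in cumulus cells and -3.99 ± 0.23 in mural cells (adjusted p = 3.8e-06 and 1.5e-10), and their difference of 5.59 ± 0.31 had an adjusted p of 1.3e-09. At 4 h the changes were -1.62 ± 0.23 in cumulus and -4.52 ± 0.24 in mural cells.

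Rgs11 fell in both cell types at 4 h. It had 77.5, 76.6 and 93.5 CPM at 0 h, 5.21, 4.74 and 3.81 CPM at 4 h, and 16.3, 21.1 and 14.8 CPM at 12 h in cumulus cells, and 40.4, 36.0 and 51.6 CPM, then 15.2, 12.3 and 16.7 CPM, then 26.1, 17 and 18.1 CPM in mural cells. The log2 change at 4 h was -4.17 ± 0.21 in cumulus and -1.53 ± 0.19 in mural cells (adjusted p = 4.4e-11 and 3.3e-06), which differed by -2.63 ± 0.27 (adjusted p = 4.6e-06). Rgs11 shares 138 exon bases with Arhgdig on the other strand, and whether the counting used strand is not given in the sources used here. Rgs9, known from photoreceptors and striatum, had 3.44, 2.18 and 1.54 CPM at 0 h, 6.02, 7.44 and 5.70 CPM at 4 h, and 1.06, 1.17 and 1.19 CPM at 12 h in cumulus cells, a log2 change of 1.42 ± 0.34 by 4 h and of -2.48 ± 0.36 from there to 12 h (adjusted p = 0.0021 and 1.2e-05).

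Of the R12 class, Rgs10 and Rgs12 were tested and Rgs14 did not pass the filter. Rgs10, the smallest of the class, had 8.30, 11.7 and 9.24 CPM at 0 h, 42.4, 52.6 and 42.0 CPM at 4 h, and 6.86, 6.74 and 7.03 CPM at 12 h in cumulus cells. In mural cells it had 4.90, 7.10 and 6.16 CPM at 0 h, 8.46, 12.2 and 8.31 CPM at 4 h, and 7.98, 8.16 and 8.50 CPM at 12 h. The cumulus pulse at 4 h stood clear of all other libraries. By 4 h the log2 change was 2.23 ± 0.18 in cumulus and 0.68 ± 0.18 in mural cells (adjusted p = 1.5e-08 and 0.0045), a difference of 1.55 ± 0.25 (adjusted p = 4.1e-04), and the mural change was 0.34 and not called when scaled by library totals. Rgs12, a large multidomain protein, had 61.9, 63.2 and 68.2 CPM at 0 h, 34.3, 40.6 and 46.5 CPM at 4 h, and 48.3, 52.9 and 53.8 CPM at 12 h in cumulus cells. Mural cells had 77.9, 72.0 and 74.4 CPM at 0 h, 42.8, 36.5 and 41.8 CPM at 4 h, and 111.004, 127 and 119 CPM at 12 h. Both cell types dipped at 4 h, with a log2 change of -0.67 ± 0.11 in cumulus and -0.89 ± 0.11 in mural cells (adjusted p = 4.1e-05 and 2.0e-06). From 0 to 12 h the change was -0.32 ± 0.10 in cumulus (adjusted p = 0.013, or 0.067 without cumulus 12 h replicate 1) and 0.67 ± 0.10 in mural cells (adjusted p = 4.4e-05).

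Rgs19, an RZ protein that binds the endocytic adaptor GIPC, had 25.0 to 41.5 CPM in cumulus and 21.0 to 31.9 CPM in mural libraries and was called in no comparison between times. Cumulus cells exceeded mural cells at 12 h by 0.59 ± 0.15 on the log2 scale (adjusted p = 0.0044). Rgs22, known from testis, had 2.13, 3.28 and 3.31 CPM at 0 h, 0.269, 0.364 and 0.751 CPM at 4 h, and 0.709, 0.205 and 0.581 CPM at 12 h in cumulus cells, and 5.54, 5.06 and 5.33 CPM, then 1.73, 1.59 and 2.14 CPM, then 3.65, 3.92 and 4.76 CPM in mural cells. The log2 difference between cumulus and mural cells at 12 h was -3.03 ± 0.40 (adjusted p = 1.2e-05). Of the members without values so far, Pde6a, Rgs7 and Rgs20 were tested but stayed under 5 CPM, and Pde2a, Pde6c, Rgs8, Rgs14, Rgs18 and Rgs21 did not pass the filter.

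At 4 h 8 of the 36 tested members rose in both cell types, as did 15.9% of all genes tested: Pde1a, Pde4b, Pde4d, Pde10a, Rgs1, Rgs2, Rgs4 and Rgs10. Another 7 fell in both (15% of all genes): Pde9a, Rgs3, Rgs6, Rgs11, Rgs12, Rgs13 and Rgs22. No member was called in opposite directions at 4 h (1.11% of all genes). At 12 h 8 rose in both cell types (16.3% of all genes) and 8 fell in both (12.5%). Opposite calls at 12 h were made for 3 members (3.4% of all genes), with Pde8a and Rgs6 higher in cumulus and lower in mural cells and Rgs12 the reverse. The difference between the 2 changes was called for 9 members at 4 h, 6 higher and 3 lower in cumulus than in mural cells, where 14% of all genes tested were called, 6.78% higher and 7.26% lower. With library totals 15 were called, 12 higher and 3 lower. At 12 h it was called for 19 members, 9 higher and 10 lower, where 40.1% of all genes were called, 20.1% higher and 20% lower. These differences use the same 0 h libraries at both times. Between the cell types, 11 members were higher and 12 lower in cumulus than in mural cells at 0 h (46.8% of all genes called, 21.5% higher and 25.3% lower). At 4 h 11 were higher and 14 lower (54.5%, 27.6% higher and 27% lower), and at 12 h 11 were higher and 10 lower (38.5%, 18% higher and 20.5% lower).

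**Figure D5:**
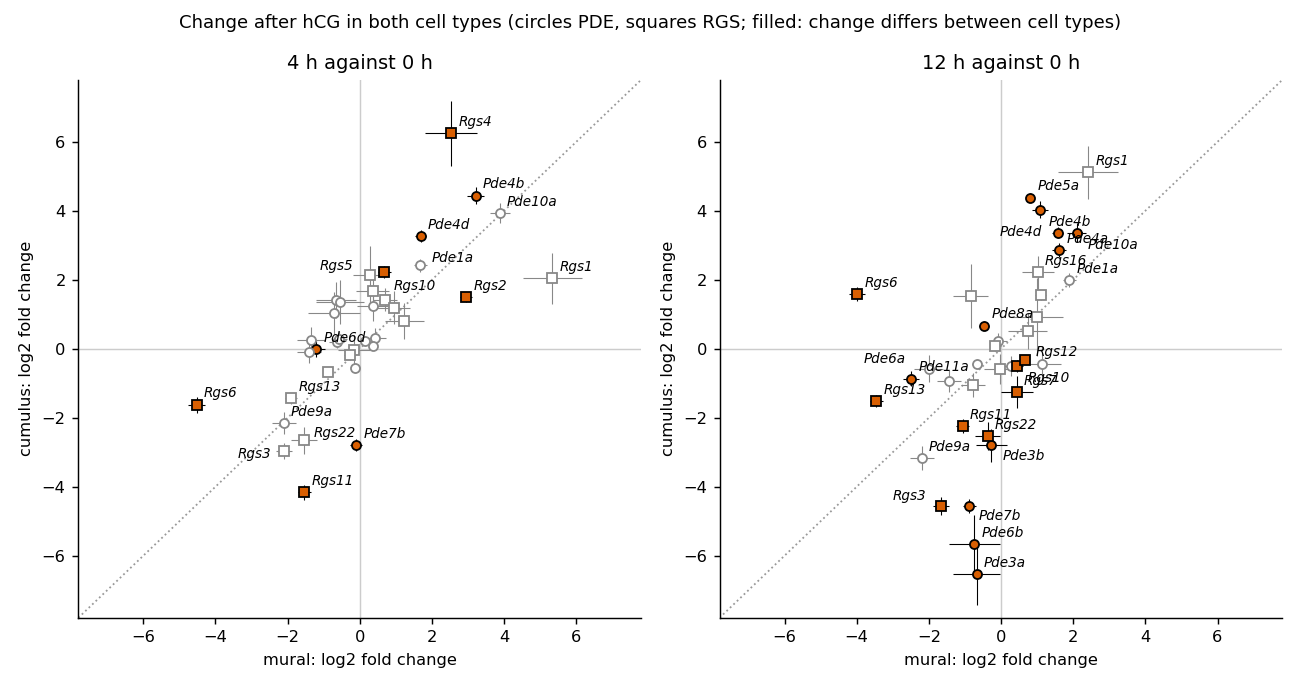
Points give the log2 fold change of each of the 36 tested members against 0 h in mural (x) and cumulus cells (y), at 4 h (left) and 12 h (right), with SE bars and the line of equal change. Filled points, 9 at 4 h and 19 at 12 h, are members whose change differed between the cell types.

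The promoters of the members that rose together are shown because the cyclic AMP response element (CRE) is the usual landing site of the factor CREB. RefSeq promoter windows (build GRCm38.p6, 250 bases before to 50 after a start) were found for 31 of the 43 members, 58 windows in all. The full element TGACGTCA, searched on both strands, was in none of the 58, against 1.79% of 32851 windows of all genes. The shorter core TGACG, which is part of the full one, was in 11 of the 31 members with a window, against 23.0% of 27025 genes. Per window it was in 11 of 58 (19.0%), against 20.8% of all windows, so the 2 ways of counting put the members on either side of all genes. It was in 4 of the 7 members with a window that rose at 4 h in both cell types, and in 1 of the 4 that fell in both. Pde4d, Pde10a and Rgs10 rose in both without a core in any window, and Rgs1 had no window. These subset counts are per gene, and a gene with several windows has more places to hold a core. The subsets were picked by their change in these data, so the counts are no test. The AP-1 letters TGANTCA were in 4 member windows (7.81% of all windows), the NR5A letters CAAGGTCA in none (1.56%) and the RUNX letters TGTGGT in 16 (16.8%). These counts describe letters in a window and show no binding. The 250 bases before the start of the 4 risen members with a core follow, 5′ to 3′ on the gene's strand, with TGACG or its reverse complement CGTCA in capitals.
Rgs2: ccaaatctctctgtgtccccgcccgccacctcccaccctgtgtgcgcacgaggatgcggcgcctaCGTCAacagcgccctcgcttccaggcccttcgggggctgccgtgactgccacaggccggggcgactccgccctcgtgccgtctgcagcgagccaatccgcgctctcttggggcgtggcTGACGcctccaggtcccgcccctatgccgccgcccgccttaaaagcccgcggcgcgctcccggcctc
Rgs4: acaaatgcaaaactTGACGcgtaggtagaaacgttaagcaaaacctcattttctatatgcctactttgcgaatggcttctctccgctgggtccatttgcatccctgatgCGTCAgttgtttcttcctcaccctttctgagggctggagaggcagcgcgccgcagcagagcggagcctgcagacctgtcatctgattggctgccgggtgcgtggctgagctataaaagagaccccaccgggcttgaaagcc
Pde1a: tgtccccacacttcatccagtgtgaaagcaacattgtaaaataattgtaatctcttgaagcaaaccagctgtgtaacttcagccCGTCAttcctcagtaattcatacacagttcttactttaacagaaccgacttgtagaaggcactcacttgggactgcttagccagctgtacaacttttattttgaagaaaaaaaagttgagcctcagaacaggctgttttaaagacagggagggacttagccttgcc
Pde4b: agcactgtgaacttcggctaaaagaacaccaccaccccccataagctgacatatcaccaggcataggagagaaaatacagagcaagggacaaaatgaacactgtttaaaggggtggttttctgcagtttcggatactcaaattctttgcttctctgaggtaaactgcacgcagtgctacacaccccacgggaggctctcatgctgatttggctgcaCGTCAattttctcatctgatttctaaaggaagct
The windows lie at chr1:144004150-144004399 on the minus strand for Rgs2, chr1:169747643-169747892 on the minus strand for Rgs4, chr2:80038903-80039152 on the minus strand for Pde1a and chr4:102421305-102421554 on the plus strand for Pde4b. Rgs2 held 2 cores, 185 and 67 bases before the start, and Rgs4 held 2, at 236 and 141 bases, while Pde1a held 1 at 166 bases and Pde4b 1 at 34 bases. Pde1a and Pde4b have several starts, and their windows not shown here held no core. The counts per gene do not say which start was used.

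Lists of genes around these brakes were counted in the same fit, which describes the lists and is no test of them. At 4 h 25% of all genes tested were higher and 22.8% lower in cumulus cells. In mural cells these shares were 22.8% and 22.3%, to be set beside each 4 h count below. Of 18 genes of cyclic AMP synthesis and its receptors, 6 were higher and 3 lower at 4 h in cumulus cells, and 3 higher and 4 lower in mural cells. Ptger4, a prostaglandin E2 receptor coupled to the stimulatory G protein, had 31.6, 38.7 and 26.0 CPM at 4 h in cumulus cells, against 3.63, 3.96 and 3.79 CPM at 0 h (log2 change 3.08 ± 0.23), and rose by 2.10 ± 0.22 in mural cells. Adcy9, an adenylyl cyclase, had a log2 change of -1.81 ± 0.12 in mural cells. Of 18 genes of protein kinase A, Epac and their anchors, 4 were higher and 2 lower in cumulus cells and 3 higher and 5 lower in mural cells at 4 h. Rapgef4, which encodes the cyclic AMP sensor Epac2, had 19.9, 18.2 and 20.5 CPM at 4 h in cumulus cells, against 220, 243 and 237 CPM at 0 h, and its log2 change in mural cells was -3.15 ± 0.18. Prkar1b, a regulatory subunit of protein kinase A, rose by 2.68 ± 0.19 in cumulus and 2.03 ± 0.19 in mural cells.

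Of 15 tested genes of cyclic GMP synthesis and its effectors, 6 were higher and 4 lower in cumulus cells and 3 higher and 4 lower in mural cells at 4 h. Prkg2, a cyclic GMP-dependent kinase, had 247, 205 and 261 CPM at 4 h in mural cells, against 0.917, 0.982 and 0.961 CPM at 0 h, a log2 change of 7.96 ± 0.30, and in cumulus cells the change was 4.98 ± 0.29, or 5.87 without cumulus 0 h replicate 3. Npr1, the receptor of atrial natriuretic peptide, had 1431, 1855 and 1520 CPM at 4 h in mural cells, against 51.2, 47.2 and 47.8 CPM at 0 h. The natriuretic peptide clearance receptor Npr3 had 112, 193 and 130 CPM, against 2.17, 2.62 and 2.10 CPM, in the same groups. Nppc, the ligand that keeps cyclic GMP high in the resting follicle, had 12.2, 13.0 and 8.64 CPM at 4 h, against 140, 134 and 101 CPM at 0 h, in mural cells (log2 change -3.47 ± 0.30).

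Of 25 tested G protein subunit genes, 5 were higher and 5 lower in cumulus cells and 6 higher and 5 lower in mural cells at 4 h, with Gnb4 and Gng12 higher in both by 1.01 to 1.67 on the log2 scale. At 12 h 9 were higher and 4 lower in cumulus cells, where 31.2% of all genes tested were higher and 32.9% lower. In mural cells 8 were higher and 1 lower, where 21.6% of all genes tested were higher and 19% lower. Gnao1, an inhibitory-class alpha subunit that R7 and R4 proteins act on, had 335, 384 and 381 CPM at 12 h in mural cells, against 25.4, 24.1 and 28.6 CPM at 0 h, and rose by 3.99 ± 0.28 in cumulus and 3.82 ± 0.27 in mural cells. Of 24 tested genes of other brakes, 8 were higher and 7 lower in cumulus cells and 4 higher and 6 lower in mural cells at 4 h. Grk5, a receptor kinase, rose in cumulus cells by 2.71 ± 0.14, and Pde4dip, a scaffold that binds PDE4D, rose in mural cells by 2.12 ± 0.13. Arrb1, which encodes an arrestin, had 232, 252 and 223 CPM at 12 h in mural cells, against 29.3, 27.7 and 27.7 CPM at 0 h. Pde6h, the inhibitory subunit of the cone photoreceptor enzyme, had 15.3, 21.6 and 16.4 CPM at 12 h, against 0.176, 0.101 and 0.197 CPM at 0 h, in mural cells.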

How the data were processed

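RNA was sequenced as stranded, polyA-selected libraries, per the labels' protocols, and aligned and counted by the authors with CLC Genomics Workbench at default settings, per the series' design text, against GRCm38, per the submitters' processing notes. The software version, gene annotation and strandedness used in counting are not stated there. The deposited table holds raw counts per gene for 18 libraries, grouped by title.

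Counts were fitted with edgeR 4.0.16 in R 4.3.3: TMM scaling, an expression filter at a minimum count of 10, 1 mean per group (12 residual degrees of freedom), the quasi-likelihood test, and Benjamini-Hochberg adjustment over 19941 genes at 0.05. Alternatives used DESeq2 1.42.0 and limma 3.58.1. The procedure was tested on simulated data. No pair of libraries agreed within sampling noise. Lengths and positions came from GENCODE M21 (GRCm38), promoters from RefSeq.

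Members and lists were chosen with earlier results of these data known. Members of at least 5 CPM in 1 group and called in 1 comparison (30 of 43) were described by their values. Most have values per library, some of them not for every group, and others have a range alone. Pathway genes were limited to the 4 largest called changes per list and comparison. Replicates sharing a number deviated from their group means with correlations of -0.49 to 0.55 (median 0.03 over 45 pairs), and were not paired. Between cumulus and mural cells at 0 h the correlations were 0.55, -0.08 and 0.43. The labels do not say whether such libraries came from the same animals.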

Additional observations from a re-analysis of the deposited data

Results flagged for a closer look

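The change after hCG differed between cumulus and mural cells, by a test of the difference itself, for 9 members at 4 h and 18 of the members described at 12 h. Values are the cumulus log2 change minus the mural log2 change. From 0 to 4 h the difference was 1.23 for Pde4b, 1.58 for Pde4d, 1.21 for Pde6d, 1.55 for Rgs10, 3.71 for Rgs4 and 2.90 for Rgs6, and -2.69 for Pde7b, -2.63 for Rgs11 and -1.45 for Rgs2. For Rgs6 both changes were falls, -1.62 in cumulus and -4.52 in mural cells. The Rgs4 value has an adjusted p of 0.042 and was not called without any 1 of 11 libraries (adjusted p of 0.051 to 0.19), and was 7.70 without cumulus 0 h replicate 1.

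From 0 to 12 h the difference was 1.27 for Pde10a, 1.63 for Pde11a, 1.25 for Pde4a, 2.96 for Pde4b, 1.80 for Pde4d, 3.58 for Pde5a, 1.14 for Pde8a, 1.94 for Rgs13 and 5.59 for Rgs6. It was -5.85 for Pde3a, -2.53 for Pde3b and -4.93 for Pde6b, which varied with the oocyte markers among cumulus libraries at 0 and 4 h. With the oocyte marker sum as a covariate it was 1.03 for Pde3a, 1.40 for Pde3b and 1.07 for Pde6b, none of them called. That sum did not overlap between cumulus libraries at 0 and 12 h, so this fit cannot separate oocyte RNA from time there. Without mural 0 h replicate 3 it was -6.58 for Pde3a and -5.54 for Pde6b, and without cumulus 0 h replicate 3 it was -4.28 for Pde6b. It was -3.68 for Pde7b, -0.94 for Rgs10, -1.18 for Rgs11, -0.99 for Rgs12, -2.17 for Rgs22 and -2.89 for Rgs3.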

How the results depend on the processing

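Of 167 called gene results, 126 kept direction and call under every alternative. With the oocyte marker sum as a covariate, 26 lost the call and 9 reversed. That sum did not overlap between cumulus libraries at 12 h and earlier ones, or between the cell types at 4 h. There this fit cannot separate oocyte RNA from the groups compared. The reversed log2 values against cumulus 0 h at 12 h were 0.84 for Pde6b, 0.97 for Pde3a, -0.12 for Pde8a and 1.41 for Pde3b; Rgs17 was 3.31 at 12 h against 4 h in cumulus cells, Pde3a was -0.14 in cumulus against mural cells at 4 h, and the differences in change from 0 to 12 h were 1.07 for Pde6b, 1.03 for Pde3a and 1.40 for Pde3b. The uncalled Pde5a change in cumulus cells at 4 h was -0.057 with library totals, and the uncalled Pde7b change in mural cells at 4 h ranged from -0.23 to 0.012 with 1 library left out. The cause was not tested.

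Of 308 recomputed member counts, 301 lay within 1.5 times the value given. The exceptions with the oocyte covariate were 16 at 12 h against 0 h and 10 at 12 h against 4 h in cumulus cells, and 15 between cell types at 4 h. The 9 differences in change at 4 h became 15 with library totals, 16 with DESeq2 and 15 with limma voom, and 7 to 15 with 1 library left out, the highest without cumulus 4 h replicate 3. Library totals moved the median log2 change of all genes from -0.06 to -0.38 in mural cells at 4 h and from -0.09 to -0.34 in cumulus cells at 12 h, so small changes are relative to TMM scaling. Same-numbered replicates had a median correlation of deviations of 0.03 over 45 pairs; with the replicate block 1 called result was lost, the Rgs4 difference at 4 h (3.68, adjusted p = 0.058). Depth limits members under about 0.1 CPM.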
